A study of Mus musculus with 10 samples.

Results

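Expression of 10 marker genes of testicular macrophages was followed in mouse Sertoli cell cultures and in adult mouse testis. The genes were Csf1r, Cd68, Adgre1, C1qa, C1qb, C1qc, Mrc1, Cd163, Lyz2 and Havcr2. They were taken by symbol from a list of macrophage genes, and all 10 were found among the 17816 genes of the day 7 table and the 20007 genes of the adult table. RNA was enriched with oligo(dT) and sequenced on the BGISEQ platform in 10 samples. The day 7 samples were Sertoli cells, 2 from Rnf20 Flox/Flox mice, which the labels call WT, and 2 from Amh-Rnf20-/- mice, in which the Amh promoter drives Cre, so that floxed Rnf20 is deleted from Sertoli cells. Both day 7 groups were prepared from testes at 7 days after birth by collagenase and trypsin digestion, and the adherent cells were used after passaging. The adult samples were whole testes, 3 labelled WT and 3 labelled Rnf20 conditional knockout (cKO), with no exact age, and the methods of the study describe RNA-seq at day 7 but not in adult testis. No source says that the adult samples came from separate animals, so the p-values measure the spread between these samples.

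Macrophages are phagocytes of the immune system that live in most tissues. In the testis they lie in the interstitium next to the Leydig cells, where most carry the receptor CSF1R and the mannose receptor MRC1, and around the tubules, where they carry more MHC class II. They depend on signals through CSF1R and clear dying cells, and several of their genes are switched on by the transcription factor PU.1, the product of Spi1.

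Places and promoter sequences came from RefSeq on GRCm38.p6, the build to which the authors mapped their reads. Cd68 lies on chromosome 11 from 69664213 to 69666170, and Adgre1 on chromosome 17 from 57358581 to 57483529. C1qa, C1qb and C1qc share a cluster of 18719 bases on chromosome 4 from 136880126 to 136898844. Mrc1 lies on chromosome 2 from 14229414 to 14332023, Cd163 on chromosome 6 from 124304636 to 124330529, Lyz2 on chromosome 10 from 117277541 to 117282272, and Havcr2 on chromosome 11 from 46454931 to 46481255. Csf1r, Adgre1, Mrc1 and Cd163 overlap other annotated genes (among them the microRNA genes Mir6983 in Csf1r and Mir511 in Mrc1), and the handling of strand in the counts is not given, so reads of the overlapping genes cannot be told apart.

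A promoter window was held for 7 of the 10 genes, all but Csf1r, Adgre1 and C1qa. The letters GAGGAA, the core of many PU.1 sites, were searched on both strands in the 250 bases before the transcript start that each window uses. They were found in 5 of the 7 windows (C1qb, C1qc, Cd68, Havcr2 and Mrc1), against 23.3% of all 32851 windows of that length. The letters TATAAA were found in 0 of the 7 windows, against 12.4% of all windows. Sequences are shown for a pair of neighbours in the C1q cluster and for the genes with the smallest and the largest fitted change in adult testis, Mrc1 and Lyz2, with the matches in capitals (GAGGAA, or TTCCTC for the other strand). Bases that GENCODE M21 places in an exon were left out at the 3′ end. The windows are chr4:136886201-136886450 on the minus strand for C1qb, chr4:136893066-136893164 on the minus strand for C1qc, chr2:14229164-14229391 on the plus strand for Mrc1 and chr10:117282322-117282522 on the minus strand for Lyz2.
C1qb: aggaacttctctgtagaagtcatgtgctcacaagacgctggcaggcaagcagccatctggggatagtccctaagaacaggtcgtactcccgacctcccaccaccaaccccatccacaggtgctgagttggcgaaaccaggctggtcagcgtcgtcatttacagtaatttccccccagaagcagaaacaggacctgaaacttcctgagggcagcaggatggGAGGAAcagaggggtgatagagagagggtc
C1qc: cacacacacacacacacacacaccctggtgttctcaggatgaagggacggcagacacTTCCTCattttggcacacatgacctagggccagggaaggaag
Mrc1: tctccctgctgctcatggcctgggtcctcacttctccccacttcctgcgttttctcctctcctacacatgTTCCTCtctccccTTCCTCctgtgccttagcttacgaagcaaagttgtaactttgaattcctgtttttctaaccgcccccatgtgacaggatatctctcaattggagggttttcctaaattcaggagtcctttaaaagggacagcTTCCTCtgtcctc
Lyz2: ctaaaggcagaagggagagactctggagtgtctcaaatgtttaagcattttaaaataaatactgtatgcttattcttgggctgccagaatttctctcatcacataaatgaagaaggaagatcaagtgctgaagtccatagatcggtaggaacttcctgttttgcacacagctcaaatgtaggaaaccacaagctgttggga
Counted from that start, the match began 30 bases before it in C1qb and 193 bases before it in C1qc, whose window starts from a site 22 bases inside the gene as placed above (15 bases in Cd163). Mrc1 held 3 matches, beginning 180, 167 and 35 bases before its start, and Lyz2 held none. A match describes letters only and does not show that a factor is bound.

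The day 7 samples held between 17477268 and 17705347 estimated counts, and the adult samples between 15431912 and 16574144. Rnf20 was read first as a check of the labels. At day 7 its FPKM (fragments per unit of gene length and of library size) was 16.64 and 16.01 in Rnf20 Flox/Flox and 10.25 and 12.58 in Amh-Rnf20-/- cells, lower without overlap (log2 fold change -0.49, adjusted p = 0.222 by edgeR's quasi-likelihood test). In adult testis it was 4.89, 3.32 and 4.09 in WT and 9.16, 5.76 and 9.85 in the samples labelled cKO (log2 fold change 0.12, SE 0.269, adjusted p = 0.688), higher without overlap in FPKM but overlapping on scaled counts. Rnf20 was thus not lower in FPKM or on scaled counts in the samples labelled cKO, and cKO below stands for the label only. The paper reports less RNF20 protein in adult Amh-Rnf20-/- testes by Western blot, and its PCR of Rnf20 was set relative to Hprt. The deletion is meant for Sertoli cells, and whole testis holds many other cells, whose part in the Rnf20 values was not tested. Hprt, a housekeeping gene, had a log2 fold change of 2.30 in the adult table and 0.02 in the day 7 table. The adult cKO samples differed from WT across the whole table: the summed FPKM of 7 spermatid markers was between 123285 and 192215 in WT and between 1.91 and 72.99 in cKO. Replicate 1 of the adult cKO samples stood apart, with a summed FPKM of 5 spermatocyte markers of 1.2 against 77.09 and 134.8 in the other cKO samples, and of 10 Sertoli cell markers of 2059 against 5446 and 6163.

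In adult testis all 10 macrophage genes were higher in cKO than in WT, in every sample. The mean FPKM rose between 9.71-fold for Mrc1 and 49.6-fold for Lyz2, with a median of 27.8-fold. All 10 passed the test (adjusted p under 0.05, edgeR's quasi-likelihood test), where 40.9% of all 15919 genes tested were called higher and 40.6% lower. None of the 10 overlapped between groups, where 42.4% of genes were higher without overlap, and 9 of the 10, all but Cd163, also passed the thresholds of the study (log2 fold change over 1, adjusted p under 0.001), where 23.0% of genes did. Their fitted log2 fold changes had a median of 3.93 and ran from 2.43 to 4.78, while the median over all genes tested was 0.01. A fitted change above 3 was found for 9 of the 10 genes, all but Mrc1, and for 11.1% of all genes. Cd163 and Havcr2 passed the filter on low values only through the cKO samples, so both had to differ, and the counts are to be read from the other 8 genes, which were all called. In bulk RNA more macrophages and more RNA per macrophage cannot be told apart. The germ cell markers given above moved in the same samples, and their part in the change of the 10 genes was not tested.

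**Figure D1:**
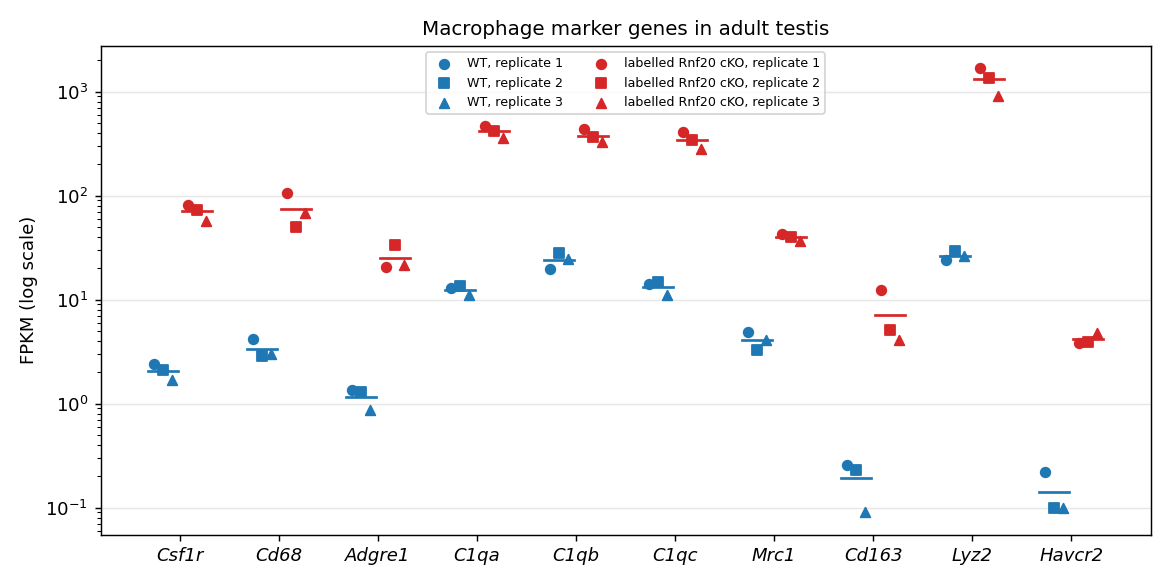
FPKM of each macrophage gene in adult testis on a log axis, with WT samples in blue, samples labelled cKO in red, a symbol for each replicate and a short line at each group mean. Every red point lies above every blue point of the same gene, by at least 7.34-fold (Mrc1).

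Csf1r, the receptor for CSF1 and IL-34 that macrophages need to survive, had an FPKM of 2.42, 2.11 and 1.68 in WT and of 81.92, 72.68 and 57.05 in cKO. The lowest cKO sample was 23.6-fold above the highest WT sample. The fitted log2 fold change was 4.24 (SE 0.257, adjusted p = 4.27e-05, edgeR). The gene lies on chromosome 18 from 61105572 to 61131139 (GRCm38.p6).

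Cd68, a glycoprotein of the lysosome, and Adgre1, which encodes the surface marker F4/80, are the common labels of mouse macrophages. Cd68 had an FPKM of 4.14, 2.84 and 2.97 in WT and of 104.85, 49.75 and 68.05 in cKO, a log2 fold change of 3.64 (SE 0.362, adjusted p = 0.000193, edgeR). Its highest cKO sample, replicate 1, was 2.23 times its lowest on scaled counts, and the lowest was still 12.0-fold above the highest WT sample in FPKM. Adgre1 had an FPKM of 1.34, 1.29 and 0.86 in WT and of 20.79, 33.24 and 21.43 in cKO, a log2 fold change of 3.56 (SE 0.287, adjusted p = 9.21e-05). It was the only one of the 10 genes that was highest in cKO replicate 2.

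C1qa, C1qb and C1qc encode the chains of C1q, which starts the classical complement pathway and is made largely by macrophages. C1qa had an FPKM of 12.79, 13.47 and 11.19 in WT and of 470.93, 415.83 and 356.1 in cKO (log2 fold change 4.20, SE 0.215, adjusted p = 3.18e-05, edgeR). C1qb had 19.86, 28.12 and 24.33 in WT and 431.77, 362.9 and 326.03 in cKO (log2 fold change 3.10, SE 0.239, adjusted p = 8.06e-05). C1qc had 14.18, 14.73 and 11.06 in WT and 408.03, 339.45 and 282.25 in cKO (log2 fold change 3.83, SE 0.25, adjusted p = 5.04e-05). The order of the chains differed between the groups. In WT, C1qb was above the other chains without overlap, whereas in cKO C1qa had the highest mean and its samples overlapped those of C1qb. As a share of the summed FPKM of the 3 chains, C1qb made up 42.4%, 49.9% and 52.2% in WT and 32.9%, 32.5% and 33.8% in cKO. C1qa made up 27.3%, 23.9% and 24.0% in WT and 35.9%, 37.2% and 36.9% in cKO. These shares rest on 633 to 765 counts of the 3 genes per WT sample and on 12343 to 17172 per cKO sample.

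**Figure D2:**
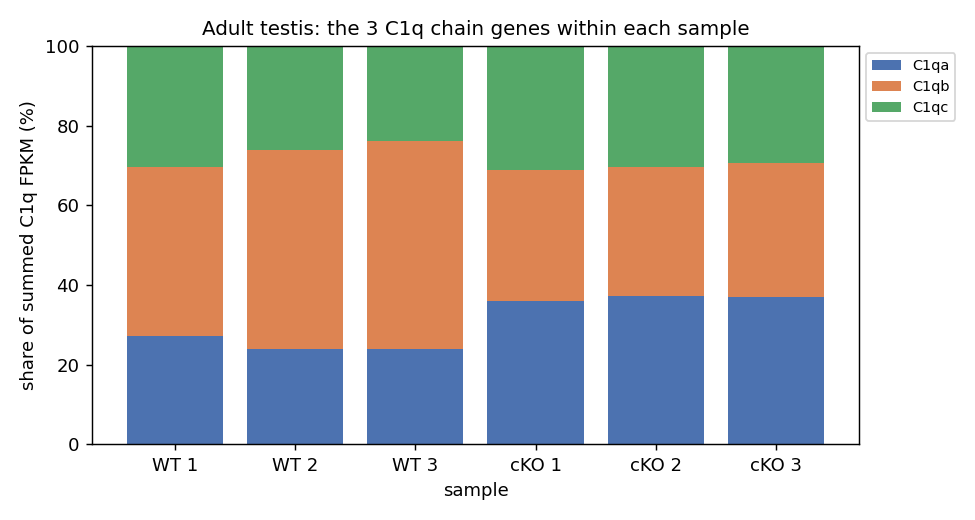
Share of the summed C1q FPKM (%) taken by C1qa, C1qb and C1qc in each adult testis sample, stacked to 100. The C1qb part is 42.4% or more in the WT samples and 33.8% or less in the samples labelled cKO.

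Mrc1 and Cd163 are scavenger receptors of resident macrophages, and Mrc1 marks those of the testis interstitium. Mrc1 had an FPKM of 4.93, 3.26 and 4.06 in WT and of 42.33, 40.4 and 36.18 in cKO. Its log2 fold change of 2.43 (SE 0.187, adjusted p = 7.98e-05, edgeR) was the smallest of the 10. Cd163 was close to the detection limit in WT, with an FPKM of 0.26, 0.23 and 0.09 from 18, 16 and 6 counts, and had 12.25, 5.13 and 4.09 in cKO. Its log2 fold change was 4.34 with the largest standard error of the 10 (SE 0.659, adjusted p = 0.00112), and its highest cKO sample was 3.39 times its lowest on scaled counts.

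Lyz2, the lysozyme of myeloid cells, was the most abundant of the 10 genes in cKO. It had an FPKM of 23.81, 29.01 and 26.28 in WT and of 1677.29, 1336.99 and 912.04 in cKO, a log2 fold change of 4.78 (SE 0.346, adjusted p = 6.73e-05, edgeR). Lyz1, a near-identical neighbour with which reads may be shared and which was named after its value was seen, had a mean FPKM of 2.17 in WT and 106 in cKO (log2 fold change 4.76, adjusted p = 4.17e-05). Lyz2 made up between 91.5% and 93.6% of the FPKM of both in every adult sample. The other lysozyme-like genes measured, Lyzl1, Lyzl4, Lyzl6 and Spaca3, which are known from sperm, were called lower, with log2 fold changes between -7.43 and -6.60, and all 4 were under an FPKM of 0.5 in some cKO sample.

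Havcr2 encodes TIM-3, an inhibitory receptor of T cells and myeloid cells. It had the lowest mean of the 10 genes in both adult groups, overlapping Cd163 in both, with an FPKM of 0.22, 0.1 and 0.1 in WT, from 9, 4 and 4 counts, and of 3.82, 3.88 and 4.8 in cKO. Its log2 fold change was 4.02 (SE 0.364, adjusted p = 0.000136, edgeR). It was the only one of the 10 that was highest in cKO replicate 3. Within cKO, 8 of the 10 genes were highest in replicate 1 and 8 were lowest in replicate 3 on scaled counts. Together the 10 genes held between 0.0093% and 0.0102% of all counts in WT and 0.315%, 0.263% and 0.208% in cKO replicates 1, 2 and 3. Without cKO replicate 1, all 10 still passed the test, with a median log2 fold change of 3.78.

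The size of the fitted change depended on the scaling, and its direction did not. Scaled to total counts the 10 log2 fold changes ran from 3.28 to 5.63, and under median-ratio scaling they ran from 2.24 to 4.60, with all 10 called under both. The median of all genes moved with them, to 0.87 and -0.19. Of all genes, the calls were 8615 higher and 4775 lower for total counts, 5985 and 6928 for median ratios, and 6503 and 6466 for the TMM scaling used here.

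**Figure D3:**
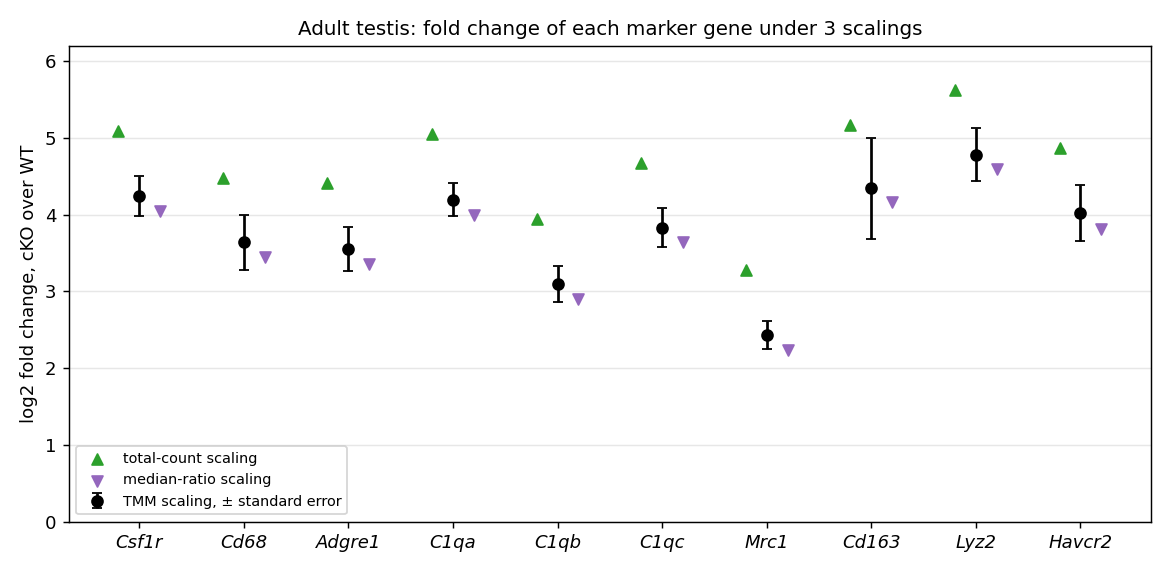
Log2 fold change of each macrophage gene in adult testis, cKO over WT, with TMM scaling (black, bars are ± 1 standard error), total-count scaling (green) and median-ratio scaling (purple). All values lie above 2, and the genes keep nearly the same spacing under each scaling, between 2.43 for Mrc1 and 4.78 for Lyz2 with TMM.

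Ratios between the 10 genes within a sample do not depend on the scaling. The ratio of Mrc1 to Csf1r FPKM was on average 1.97 in WT and 0.567 in cKO, a difference of -1.79 on the log2 scale, without overlap. The ratio of C1qb to C1qa was 1.92 in WT and 0.901 in cKO, a difference of -1.09. The ratio of Lyz2 to Csf1r went the other way, from 12.8 to 18.2, a difference of 0.50. For these and for each of 8 such ratios p was 0.1 in a two-sided exact permutation test (adjusted p = 0.1 over the 8), which is the smallest p that 3 samples against 3 allow. The 8 ratios were chosen after the values were seen. In order of FPKM, the ranges of Lyz2 and C1qb overlapped at the top in WT, followed by C1qc and C1qa, which overlapped, then Mrc1 and Cd68, which overlapped, then Csf1r, Adgre1, and last Cd163 and Havcr2, which overlapped. In cKO, Lyz2 stood alone at the top, C1qa, C1qb and C1qc overlapped in turn, Cd68 and Csf1r overlapped, Mrc1 lay below both, and Cd163 and Havcr2 overlapped at the bottom.

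Other genes of macrophages were counted from lists of known function. Part of most counts below was fixed by the filter, since genes under an FPKM of 0.5 in WT entered mostly through cKO, so the count is also given for the genes at 0.5 or more in every WT sample. Of 5 tested genes for growth factors and their receptors 5 rose, but only Csf1 and Csf2ra were at 0.5 in every WT sample. Csf1, the main ligand of CSF1R, rose from a mean FPKM of 0.757 to 28.7 (log2 fold change 4.38, SE 0.183, adjusted p = 2.75e-05, edgeR), and Il34, the other ligand, rose from 0.26 to 5.27 (log2 fold change 3.46, adjusted p = 0.00108). Of 8 transcription factors 7 rose (4 of 5 at 0.5 in every WT sample), among them Spi1 (PU.1) from 1.02 to 23.9 (log2 fold change 3.61) and Irf8 from 1.15 to 52.6 (log2 fold change 4.66). Nr1h3, an oxysterol receptor, did not pass the test (log2 fold change -0.06, adjusted p = 0.856).

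Of 21 further macrophage genes 19 rose and 2 fell. Of the 15 at 0.5 in every WT sample, 13 rose. Tyrobp, a signalling adaptor, rose from 9.97 to 235.7 and Ctss, a lysosomal protease, from 5.46 to 186.5. The genes that fell were Aif1, which encodes the marker IBA1 (mean FPKM 627.8 in WT and 36.6 in cKO, log2 fold change -5.00, adjusted p = 3.72e-05), and Msr1, a scavenger receptor (log2 fold change -1.35, adjusted p = 0.000712), which is named here after its value was seen. In WT, Aif1 was thus far above each of the 10 genes, while Ptprc, which encodes the leukocyte antigen CD45 and was also named after its value was seen, had a mean FPKM of 0.287. Of 8 partners of C1q in the complement cascade 8 rose (6 of 6 at 0.5 in every WT sample), among them Serping1, the inhibitor of C1 (20.1 to 699.9), and C3 (2.71 to 158.4). Of 7 MHC class II genes 6 rose (5 of 6 at 0.5 in every WT sample), among them Cd74 (14.3 to 872.5) and H2-Aa (14.7 to 829.9), and H2-DMa, named after its value was seen, was not called (log2 fold change 0.21, adjusted p = 0.539). Of 9 receptors and bridging molecules for dead cells 7 rose (6 of 8 at 0.5 in every WT sample), among them Cd36 (8.22 to 209.5) and Gas6 (17.9 to 185.2). Of 3 tested relatives and ligands of Havcr2, Lgals9 and Timd4 rose, Timd4 from under 0.5 in WT, and Hmgb1 did not pass the test.

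Markers of other cells moved in the same samples. Of 7 Leydig cell markers 7 rose, of 6 stromal markers 6, and of 6 endothelial markers 5 (1 of 2 at 0.5 in every WT sample). Of 7 peritubular myoid markers 5 rose (4 of 6 at 0.5 in every WT sample) and 1 fell. Of 10 Sertoli cell markers 4 rose and 1 fell, and the one that fell was under 0.5 in some cKO sample. Of 7 spermatid markers 7 fell and of 5 spermatocyte markers 3 fell, of which 6 and 2 were under 0.5 in some cKO sample. Of 6 tested spermatogonium markers 3 fell, and Zbtb16, named after its value was seen, rose from under 0.5 in WT. Markers of other leukocytes were mostly under 0.5 in WT. Of the genes called higher, all 4 for T and NK cells, 2 for B cells, 3 for mast cells, 2 for monocytes and 1 for dendritic cells were below it in at least 1 WT sample, so these counts carry no direction. Of the rest, 2 monocyte markers, 1 dendritic cell marker and 1 T and NK cell marker fell, and the 1 neutrophil marker tested was not called. The monocyte and dendritic cell markers that fell were each under 0.5 in some cKO sample. The summed FPKM in cKO was between 81.33 and 108.5 for monocyte markers, most of it from Plac8 (a mean of 79.3, not called, adjusted p = 0.0798, edgeR), 7.62 and 65.05 for mast cells, 13.19 and 29.99 for T and NK cells, 9.21 and 14.24 for dendritic cells, 6.9 and 10.09 for B cells and 1.29 and 11.72 for neutrophils, against 2068 to 3254 for the 10 genes.

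The mean log2(FPKM + 0.1) of the 10 genes was set against that of each list within each sample. Relative to the Leydig cell markers the 10 genes were slightly lower in cKO, by 0.26 on the log2 scale, without overlap. Relative to the stromal markers (a difference of -0.44), the complement partners (-0.19) and MHC class II (0.49) the samples of both groups overlapped. Relative to the endothelial markers the 10 genes were higher in cKO by 1.35, without overlap. The difference was 2.87 for the peritubular myoid markers and 2.96 for the Sertoli cell markers, each without overlap. The myoid list holds Actg2, which fell from a mean FPKM of 289.5 to 2.50, while 5 of its 7 genes rose. The Sertoli cell list holds Rhox5, named after its value was seen, which fell from 18.4 to 0.697, while 4 of its 10 genes rose. Both falls enlarge these differences, which were not computed without them. Of the 7 differences so far, that for Sertoli cells was the one that leaned on cKO replicate 1, and was 2.06 without it, still without overlap, which was computed after the values were seen. Relative to the other lists of macrophage biology the 10 genes were higher in cKO without overlap. The difference was 0.78 for the transcription factors and 1.01 for the further macrophage genes. It was 1.33 for the receptors and bridging molecules for dead cells and 1.46 for the growth factors and their receptors. The further macrophage genes include Aif1 and Msr1, which fell while the other 19 of 21 rose. These falls enlarge the 1.01, which was not computed without the 2 genes. The 10 genes were also higher without overlap relative to each of the remaining lists but the mast cell markers, where the groups overlapped (a difference of 0.59). Markers of other leukocytes were mostly under an FPKM of 0.5 in WT, where the added 0.1 shrinks a rise. The differences for those lists therefore do not show that the 10 genes rose more. Without cKO replicate 1 the difference for mast cells was 1.12, without overlap, which was also computed after the values were seen. These differences are a description and were given no test.

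**Figure D4:**
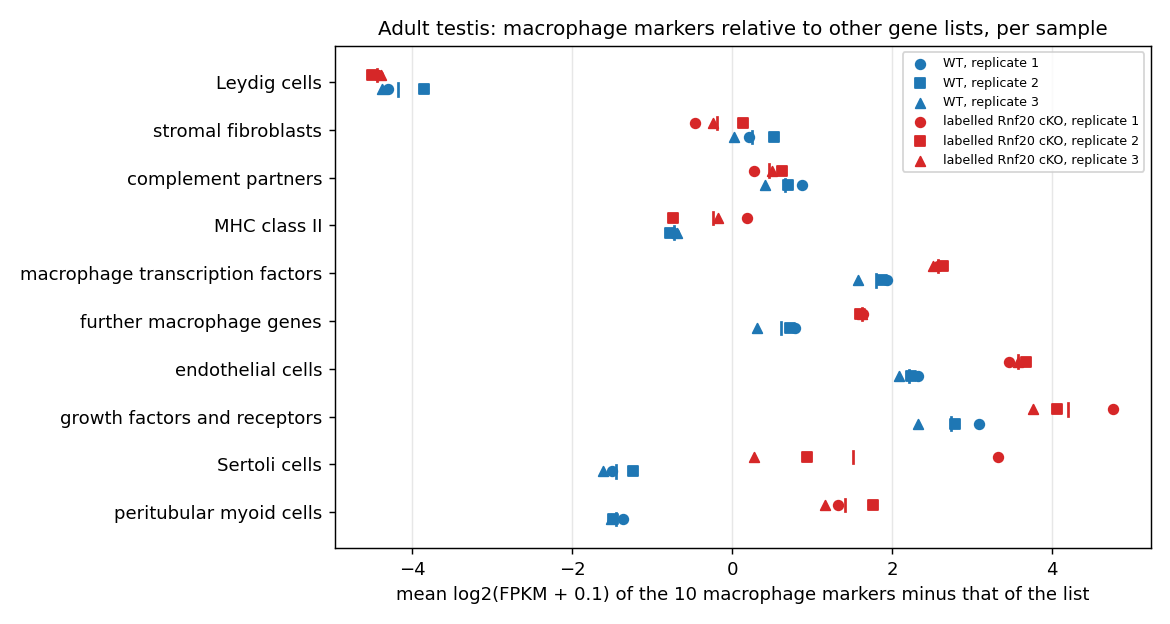
Mean log2(FPKM + 0.1) of the 10 macrophage genes minus that of each of 10 other lists in every adult testis sample (x axis, log2 units), with WT in blue, samples labelled cKO in red, a symbol for each replicate and a line at each group mean. Red and blue lie within 0.49 of each other on average for Leydig cells, stromal cells, complement partners and MHC class II. They are 2.87 apart for peritubular myoid cells and 2.96 apart for Sertoli cells (2.06 without cKO replicate 1, the circle at the right). The myoid list holds Actg2 and the Sertoli cell list Rhox5, which both fell and enlarge these distances.

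In the day 7 Sertoli cell cultures the same genes were uneven, and several markers that define macrophages were near 0. In control, the mean FPKM was 20.35 for Lyz2, 7.425 for Cd68, 2.08 for Havcr2 and 1.63 for Csf1r, and under 0.5 for each of the others. The summed FPKM of the 10 genes was 30.36 and 35.07 in Rnf20 Flox/Flox and 56.62 and 33.96 in Amh-Rnf20-/- samples, most of it from Lyz2 and Cd68. C1qa, C1qb and C1qc together held 8 and 7 counts in the control samples and 16 and 29 in the Amh-Rnf20-/- samples, and Cd163 held between 1 and 6 counts in every sample. Ptprc had a mean FPKM of 0.075 and 0.155 in these groups and Cx3cr1 of 0 and 0.025, both named after their values were seen. Other macrophage genes were present at low levels: 12 of the 21 further ones passed the filter, with Mpeg1 at 5.35 and 6.67, Cd14 at 4.28 and 5.47, Fcer1g at 3.43 and 5.27 and Ctss at 3.72 and 4.39. The markers of macrophages were thus mixed in these cultures, some near 0 and others present. The cultures also held markers of other cells: the summed FPKM of 7 peritubular myoid markers was 2515 and 2376 in control and 4115 and 4291 in Amh-Rnf20-/- samples, and their part in the values below was not tested.

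No macrophage gene passed the test at day 7. The filter (an FPKM of at least 0.5 in 2 samples) kept 5 of the 10 genes, Csf1r, Cd68, C1qa, Lyz2 and Havcr2, and C1qa passed it only through the Amh-Rnf20-/- samples. Of these, 0 were called by edgeR, 0 had an unadjusted p under 0.05 and 0 were called by DESeq2. Of all 12880 genes tested, edgeR called 0 (0%), 1997 (15.5%) had an unadjusted p under 0.05, and DESeq2 called 388 higher and 193 lower.

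Lyz2 had an FPKM of 19.41 and 21.29 in control and of 36.75 and 20.6 in Amh-Rnf20-/- samples (log2 fold change 0.54, SE 0.308, adjusted p = 0.468, edgeR). Cd68 had 6.14 and 8.71 in control and 14.24 and 7.08 in Amh-Rnf20-/- samples (log2 fold change 0.57, SE 0.405, adjusted p = 0.558). In both genes replicate 1 of the Amh-Rnf20-/- samples was high and replicate 2 lay in or near the range of the controls. Csf1r had 1.47 and 1.79 in control and 1.86 and 1.81 in Amh-Rnf20-/- samples (log2 fold change 0.21, SE 0.19, adjusted p = 0.648), and C1qa had 0.28 in each control and 0.56 in each Amh-Rnf20-/- sample, from 4 and 8 counts (log2 fold change 1.01, SE 0.466, adjusted p = 0.386). Havcr2 was the only gene of the 10 with a lower mean in the Amh-Rnf20-/- samples, at 1.24 and 1.73 against 2.11 and 2.05 (log2 fold change -0.45, SE 0.245, adjusted p = 0.449).

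The remaining 5 genes were below the filter. Adgre1 had an FPKM of 0.37 and 0.44 in control and of 0.91 and 0.39 in Amh-Rnf20-/- samples, and Mrc1 of 0.26 and 0.29 against 0.41 and 0.28, so both overlapped between groups. C1qb rested on 1 and 3 counts against 4 and 13, C1qc on 3 and 0 against 4 and 8, and Cd163 on 2 and 1 against 6 and 3. On TMM-scaled counts 5 of the 10 genes were higher without overlap, 1 was lower and 4 overlapped. Among the 5 genes tested, 2 were higher (24.8% of all genes tested were) and 1 lower (26.1%). The higher ones were Csf1r and C1qa, and C1qa had to be higher, since it passed the filter only through the Amh-Rnf20-/- samples. Of the 4 genes at an FPKM of 0.5 in every control, only Csf1r was higher. Of the 5 that were higher, only Csf1r held more than 13 counts in any sample.

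**Figure D5:**
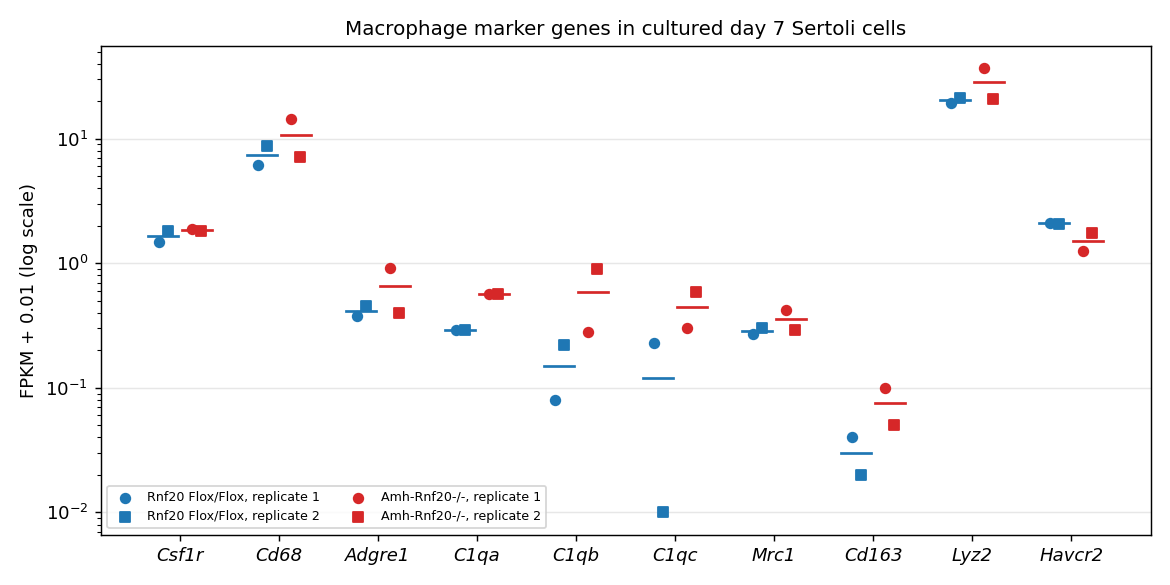
FPKM + 0.01 of each macrophage gene in cultured day 7 Sertoli cells on a log axis, with Rnf20 Flox/Flox samples in blue, Amh-Rnf20-/- samples in red, a symbol for each replicate and a line at each group mean. Lyz2 and Cd68 lie above all other genes in both groups, and the C1q genes and Cd163 lie below an FPKM of 1 in every sample.

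Cd68, Lyz2 and Havcr2 moved with single samples at day 7. With any 1 sample left out, the log2 fold change of Csf1r ran from 0.07 to 0.35 and that of C1qa from 1.01 to 1.02. C1qa rested on only 4 counts in each control and 8 in each Amh-Rnf20-/- sample. Without replicate 2 of the Amh-Rnf20-/- samples, 4 of the genes were called: Lyz2 (log2 fold change 0.90, adjusted p = 0.00164), Cd68 (0.98, adjusted p = 0.0149), Adgre1 (1.20, adjusted p = 0.0296) and Havcr2 (-0.71, adjusted p = 0.046). Adgre1 entered that fit only through the high remaining Amh-Rnf20-/- sample, so its direction was fixed and 3 calls are left to read. In that fit 2707 of all genes were called higher, or 20.2%, and 2342 lower. Without replicate 1, Lyz2 was at 0.05, Cd68 at -0.03 and Havcr2 at -0.226. In these fits the lone sample is assumed to vary like the controls. Replicate 1 also held fewer Sertoli cell markers than replicate 2, with a summed FPKM of 877.1 against 1218, where the controls had 1602 and 1463.

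As for all genes at day 7, edgeR called 0 of the related genes (the smallest adjusted p over all genes was 0.0961). DESeq2 called Csf1, Serping1, C2, C4b and Lgals9 higher among the genes of macrophage biology, C2 and C4b being named after their calls were seen. C4b passed the filter only through the Amh-Rnf20-/- samples. In the same fit DESeq2 called 5 of 6 stromal, 5 of 7 peritubular myoid and 2 of 4 Leydig cell markers higher. It also called Plac8 higher, the 1 monocyte marker tested. Plac8 had a mean FPKM of 107.7 in control, where the monocyte marker Ly6c2 had 0 (0.105 in Amh-Rnf20-/- samples), so its call cannot be read as one of monocytes. Called lower were 2 of 10 Sertoli cell markers (Sox9 and Wt1) and 1 of 7 spermatogonium markers (Dazl). Sox9 and Wt1 were named after their calls were seen. The summed FPKM of the stromal markers was 2152 and 2236 in control and 3920 and 3306 in Amh-Rnf20-/- samples; their part in the calls was not tested. Csf1 was abundant, at a mean FPKM of 79.2 in control and 188 in Amh-Rnf20-/- samples (log2 fold change 1.30, SE 0.319, adjusted p = 0.213, edgeR), and its fellow ligand Il34 had 1.92 and 1.44. Serping1 had 30.9 and 79.7 (log2 fold change 1.41, SE 0.102, adjusted p = 0.119), and the phagocytic receptor Axl had 361.7 and 359.4.

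The genes outside the list whose profile over the samples was most like the mean profile of the tested macrophage genes were ranked by the root-mean-square distance of centred log2(TMM-scaled CPM + 1). In adult testis, over 6 samples, these were Fkbp9 (0.0643), Cyp2j6 (0.0774), Ocrl (0.0785), Nr2f2 (0.0787) and Tyrobp (0.0788), of which only Tyrobp was in any of the lists. At day 7, over 4 samples, they were Gpr39 (0.0114), B3glct (0.0146), Arfgap3 (0.0171), Isoc1 (0.0198) and Spin4 (0.0206). Nearness of profiles says nothing of shared function.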

How the data were processed

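RNA-seq of 4 day 7 Sertoli cell samples and 6 adult testis samples was analysed, grouped by their labels. For mapping, the authors used HISAT on the genome (GRCm38.p6) and Bowtie2 on reference transcripts, and RSEM gave FPKM (versions are not given in the sources used here, nor is strandedness). The deposited tables hold estimated counts, which are not normalized, and FPKM, which the authors scaled by gene length and library size. Deposited TPM values and 20 adult columns without any value were not used. The methods describe this for day 7 only, and give 3 individuals per group where 2 samples per group were analysed. Since a growth protocol of adult tissue is given even for day 7, ages were taken from the titles.

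Each table was fitted on its own with edgeR 4.0.16 (R 4.3.3) by the quasi-likelihood test after rounding the counts, with TMM scaling (factors 0.984 to 1.02 at day 7, 0.710 to 0.761 in adult WT and 1.27 to 1.42 in adult cKO) and Benjamini-Hochberg adjustment. Genes entered where FPKM reached 0.5 in 2 samples at day 7 (12880 genes) or 3 in adult testis (15919 genes). Called means an adjusted p under 0.05. Standard errors were obtained from the log2 fold change and the F statistic, as their quotient after taking the square root of F. Replicates were compared by a chi-square test and all pairs differed beyond counting noise (at least 2.65 per degree of freedom). Overlap of groups was judged on TMM-scaled counts. Samples sharing a replicate number were not paired by the labels or the data (correlations of deviations 0.0316 at day 7 and 0.00623 to 0.0273 in adult testis).

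Alternatives were total-count and median-ratio scaling, no filter, a mean FPKM of at least 1, DESeq2 1.42.0, limma 3.58.1 on log2(FPKM + 0.1) and log2(FPKM + 1), a replicate block, the thresholds of the study (absolute log2 fold change over 1, adjusted p under 0.001) and each sample left out. Ratios were tested with scipy 1.17.1. All 10 members are named, and of the other lists up to 4 genes with the highest mean FPKM per table, with Rnf20, Hprt and the 5 nearest profiles, and exceptions are marked. The members and lists were chosen with earlier results of these data known.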

Additional observations from a re-analysis of the deposited data

Results flagged for a closer look

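Havcr2 was lower in both cKO samples at day 7 and higher in all 3 labelled cKO in adult testis, without overlap of the groups in either table. Its log2 fold change was -0.448 in day 7 Sertoli cells (adjusted p = 0.449, edgeR's quasi-likelihood test, not called) and 4.02 in adult testis (adjusted p = 0.000136), where it passed the filter only through the cKO samples. In FPKM it was between 1.24 and 2.11 in the 4 cultures, above its level in adult WT testis, which was at most 0.22, though the tables were made separately. The difference between the tables was not tested, and age, cell source and culture differ between them together with the table.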

How the results depend on the processing

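In adult testis all 10 genes stayed higher under every alternative and were called in each, except that Cd163 missed the thresholds of the study. Their median log2 fold change was 3.93, 4.77 with total counts, 4.46 with limma on log2(FPKM + 0.1), 3.73 with median-ratio scaling, and between 3.75 and 4.05 with 1 sample left out, where 10 were called each time. At day 7 the median over 5 tested genes was 0.54, 0.285 with limma on log2(FPKM + 1), where the larger pseudocount shrinks low genes, and between 0.188 and 0.941 over the 6 to 8 genes tested with 1 sample left out, where between 0 and 4 genes were called, the 4 with Adgre1, which passed the filter there only through the sample where it is high. Without cKO replicate 1, Cd68 reversed to -0.0349, and without cKO replicate 2 it was called at 0.984, Lyz2 at 0.898 and Havcr2 at -0.712; the cause was not tested. With the replicate number as a block, 0 genes of the list were called at day 7 (median 0.481) and 10 in adult testis (median 3.94). The block called 6061 genes higher and 6148 lower in adult testis and 0 at day 7, where the smallest adjusted p was 0.141; with 0.0961 the main fit had none under 0.05 either. DESeq2 gave C1qa no adjusted p at day 7, and C1qa had no value with a mean FPKM of at least 1. At day 7 the C1q genes together held at most 29 counts per sample and Cd163 at most 6, which limits the precision of their values.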
